A study of Mus musculus with 2 samples.

Results

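Transcription factors that set or keep the identity of retinal cells were compared between 2 RNA libraries of mouse eyeball, 1 from a control and 1 from oxygen-induced retinopathy (OIR). The members were 41 genes chosen by symbol from the deposited table of 47644 genes, and every symbol was found on exactly 1 row. They were divided by the cells in which each is best known into 8 photoreceptor, 4 bipolar, 5 ganglion, 4 horizontal and 9 amacrine factors, 8 factors of progenitors and Müller glia, and 3 nuclear factor I genes. Many of them act in more than 1 class, so the division is an aid to reading and not a measurement.

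Both libraries are labelled as eyeball from strain C57BL/6, with no transgene or drug named. In OIR, mice entered a hyperoxia chamber at day 7, spent 5 days there and went back to room air, and eyes were collected at day 17. High oxygen stops and prunes the growing retinal vessels, and the return to room air leaves poorly supplied retina hypoxic, so that new vessels sprout. The control is labelled only as control; its age, and the number of eyes or animals behind either library, are not stated in the labels. The stated purpose of the series was the mechanism of lasting visual loss in this model.

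Retinal neurons and Müller glia arise from shared progenitors, and transcription factors act in cascades that commit each cell to a class. Otx2 and Crx open the photoreceptor programme, Nrl and Nr2e3 direct it to rods, and Thrb and Rxrg act in cones. The same factors often stay on in the mature cell, where they keep the genes of its class expressed.

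The libraries held 15741235 control reads and 20378793 OIR reads assigned to genes. Levels below are FPKM, the authors' reads per kilobase of transcript, scaled to library size. They allow comparison between genes only as far as the lengths behind them do. For many members the length implied by control reads and FPKM was shorter than the deposited gene length. It was 1754 against 4427 bases for Pax6 and 2622 against 4445 for Pou4f1. Orders and level ratios between genes depend on that choice. A difference is that of log2(FPKM + 1), OIR minus control, and understates changes at low levels. A ratio is the share of reads in OIR over that in the control, with an exact 95% Clopper-Pearson interval that covers counting error only. With 1 library per group no value has a replicate check and no test between conditions can be made, so animals and libraries may differ by more than these intervals. The 15883 genes that reached an FPKM of 1 in the control, in OIR or in both are called tested genes although no test was made on them, and 38 of the 41 members were among them. Eyeball RNA also holds non-retinal tissue: lens markers summed to 143755 FPKM in the control and 102575 in OIR, and markers of rods, the commonest retinal neurons, to 20902 and 20771. In such samples fewer cells of a type and less RNA per cell cannot be told apart.

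The leading members by level were rod and pan-photoreceptor factors. Nrl, Crx and Nr2e3 together made up 52.8% of the summed FPKM of the members in the control and 54.1% in OIR. Their sequences upstream of a RefSeq transcription start are shown because these 3 genes carry most of the signal and because the core recognised by the Crx and Otx2 homeodomains, TAATCC, can be searched in them. Each is the 250 bases before the RefSeq start nearest to the gene's own start in the table, on GRCm38.p6 (the assembly of mm10), read 5′ to 3′ on the gene's strand, with matches to TAATCC on either strand in capitals. Crx lies on the minus strand of chromosome 7 (window chr7:15879956-15880205), Nrl on that of chromosome 14 (chr14:55524253-55524502) and Nr2e3 on that of chromosome 9 (chr9:59950080-59950329).
Crx: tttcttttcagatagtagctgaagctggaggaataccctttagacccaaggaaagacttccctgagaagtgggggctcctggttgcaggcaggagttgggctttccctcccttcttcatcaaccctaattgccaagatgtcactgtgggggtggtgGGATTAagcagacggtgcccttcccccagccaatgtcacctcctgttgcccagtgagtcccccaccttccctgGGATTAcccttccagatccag
Nrl: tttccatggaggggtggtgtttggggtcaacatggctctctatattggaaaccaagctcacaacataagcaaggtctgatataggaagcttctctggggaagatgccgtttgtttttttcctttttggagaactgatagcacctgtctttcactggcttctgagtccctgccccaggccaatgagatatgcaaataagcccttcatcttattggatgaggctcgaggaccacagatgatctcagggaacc
Nr2e3: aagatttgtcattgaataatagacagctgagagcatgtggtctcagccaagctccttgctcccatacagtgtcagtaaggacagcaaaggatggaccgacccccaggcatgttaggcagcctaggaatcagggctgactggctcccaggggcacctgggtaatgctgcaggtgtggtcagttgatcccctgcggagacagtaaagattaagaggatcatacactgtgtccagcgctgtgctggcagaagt
The Crx window held 2 matches, both as the reverse complement GGATTA, with the first base 94 and 21 bases before the start. No match stood in the Nrl or Nr2e3 window, whose RefSeq starts lie 729 and 10580 bases from the gene's start in the table, against 13 for Crx. RefSeq windows were found for 34 of the 41 members, and 3 of them held TAATCC: Crx, Thrb with a first base 46 bases before the start, and Isl1 with one 177 bases before it. Over all 32851 windows of this length 6.25% held it. The nuclear receptor half-site AGGTCA, read by receptors such as those of Thrb, Rxrg and Rorb, stood in 2 member windows, those of Thrb and Sox2, and in 14.0% of all windows. The core ACAAAG, one of the forms bound by Sox proteins, stood in 3 member windows, those of Barhl2, Lhx9 and Sox2, and in 16.5% of all. The Lhx9 and Sox2 windows start 6133 and 410 bases from the gene's own start. For 27 of the 34 windows the bases after the start were found in a GENCODE transcript of the gene, and Sox2 was not among them. Thrb starts from several promoters, its cone form from an internal one, and the window searched was that of the outermost start. The windows of Sox9, Pou4f3, Rax, Onecut2, Tbx2, Bhlhe22 and Nfib were not used here.

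Few factors differed by much between the libraries. Of the 38 tested members 1, Sox9, was at least 2-fold higher in OIR, against 3.07% of all tested genes, and 0 were at least 2-fold lower, against 0.718%. The median difference of the members was -0.04, beside 0.11 for all tested genes, and single differences ran from -0.56 for Pou4f3 to 1.12 for Sox9. Of the members 17 lay above 0 and 21 below, while 64.9% of all tested genes lay above 0 and 35.1% below. Against the median tested gene 25 of the 38 (65.8%) lay lower, where the background is 50% by construction and 52.7% among the 12691 tested genes with at least 60 reads in both libraries, a depth that all 38 tested members reached.

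**Figure D1:**
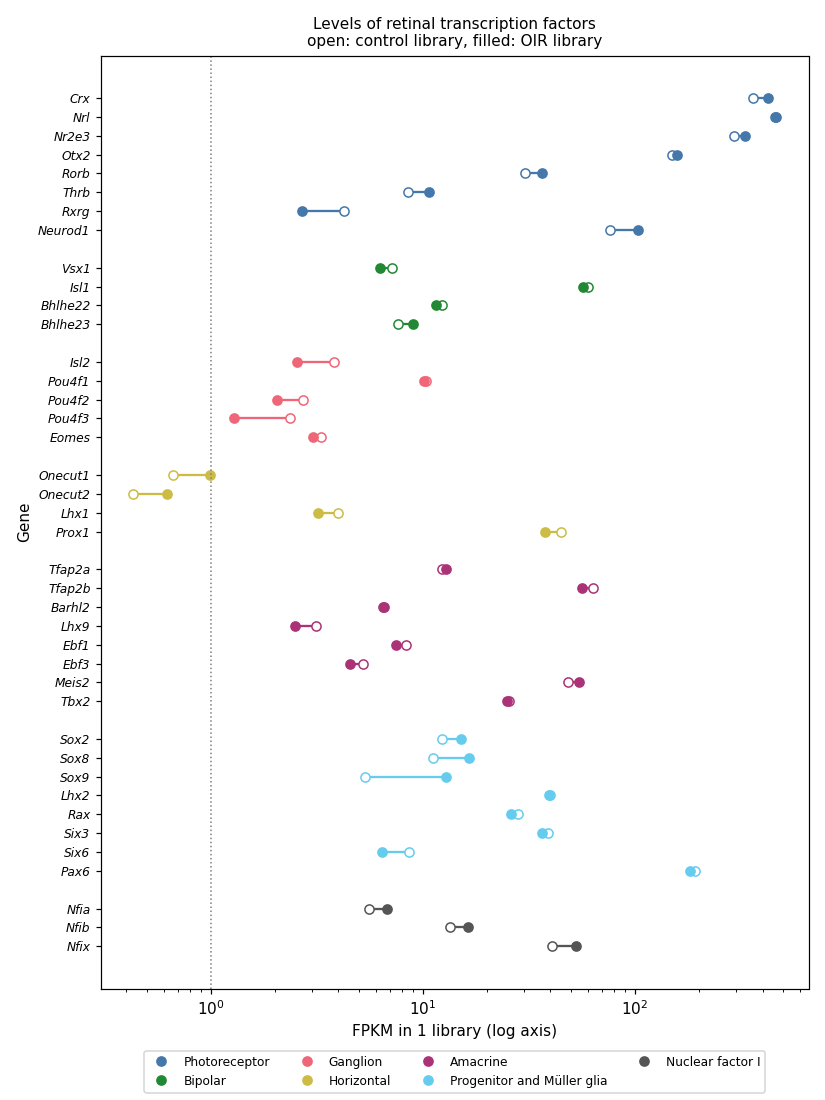
Level of each member in the control library (open points) and the OIR library (filled points), as FPKM on a log axis, grouped and coloured by class; the dotted line marks an FPKM of 1. Nrl, Crx and Nr2e3 sit highest in both libraries, Onecut1 and Onecut2 lie below 1 in both, and the widest gap on this axis is that of Sox9, from 5.36 to 12.9 FPKM. Ptf1a, with no read in either library, is left out.

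Counting intervals excluded a ratio of 1 on both sides. The interval lay above 1 for 14 of the 38 tested members (36.8%), beside 36.7% of all tested genes, and below 1 for 10 (26.3%), beside 14.7%. Among genes with at least 60 reads in both libraries the backgrounds were 39.3% and 17.2%. The split moved with scaling. The factors by which the authors divided their counts shift every log2 ratio by -0.14, and on that scale 9 members (23.7%) had intervals above 1 and 20 (52.6%) below, beside 23.2% and 25.4% of all tested genes. By class, those above and below were 5 and 2 of 8 photoreceptor, 0 and 3 of 4 bipolar, 0 and 3 of 5 ganglion, 0 and 2 of 2 horizontal, 0 and 5 of 8 amacrine, 2 and 5 of 8 progenitor and Müller glia, and 2 and 0 of 3 nuclear factor I genes. With unshifted read shares these counts were 6 and 1 for photoreceptor, 1 and 0 for bipolar, and 0 and 3 for ganglion factors. Horizontal and amacrine factors had 0 and 1, and 1 and 2. Progenitor and Müller glia factors had 3 and 3, and nuclear factor I genes 3 and 0. On both scales the share of members below 1 was larger than that of all tested genes, by an amount that changes with the scaling. On the authors' scale no share was counted among genes with at least 60 reads, whose intervals are narrower. None of the 41 members carried a mark of up or down in the authors' deposited table.

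**Figure D2:**
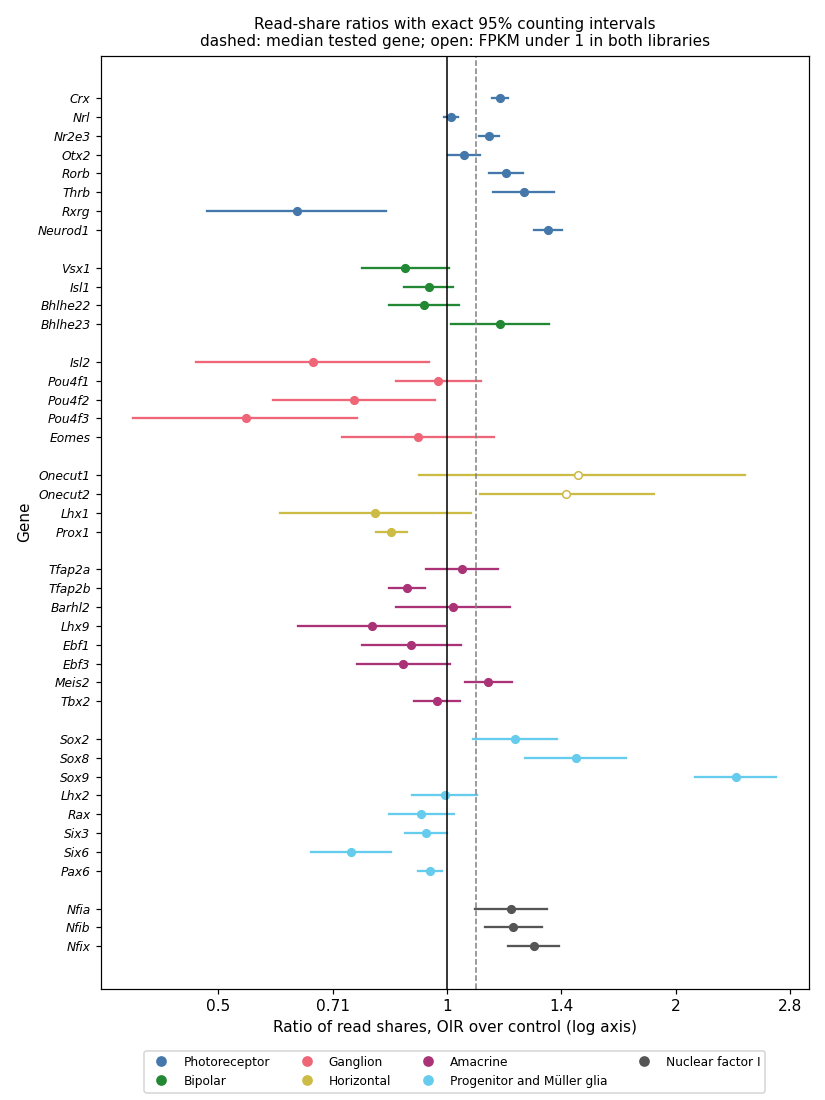
Ratio of read shares, OIR over control, on a log axis, with exact 95% counting intervals, by class; the solid line marks 1 and the dashed line the ratio of the median tested gene, and open points have an FPKM under 1 in both libraries. Sox9 stands farthest right at 2.40, the 3 nuclear factor I genes all lie right of 1, and the 5 ganglion cell factors all lie left of 1, with Pou4f3 lowest at 0.544.

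Photoreceptor factors lay mostly at or somewhat above their control level, with a median difference of 0.21 over 8 genes. In 7 of the 8 the difference was above 0, and 5 lay above the median tested gene. Crx, the homeodomain factor that activates rod and cone genes (ENSMUSG00000041578, chromosome 7, 15865947 to 15879968), stood at 363 FPKM in the control and 426 in OIR, a ratio of 1.17 (1.15 to 1.20). Nrl, the leucine zipper factor that commits precursors to rods (chromosome 14, 55518978 to 55524981), was the most abundant member, and its 460 and 465 FPKM give a ratio of 1.01 (0.990 to 1.03). Nr2e3, an orphan nuclear receptor that holds cone genes off in rods, had 292 and 332 FPKM and a ratio of 1.14 (1.10 to 1.17). The order of these 3, followed by Pax6 and Otx2, was the same in both libraries.

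Otx2, upstream of Crx and also active in bipolar cells and pigment epithelium, stood at 150 FPKM in the control and 158 in OIR, a ratio of 1.05 (1.00 to 1.11). Rorb, a nuclear receptor needed for rod commitment, had 30.5 and 36.4 FPKM and a ratio of 1.19 (1.14 to 1.26). Neurod1, a basic helix-loop-helix factor that supports photoreceptor survival (ENSMUSG00000034701, chromosome 2, 79452521 to 79456751), had the highest ratio of the class. It stood at 76.5 and 104 FPKM, a ratio of 1.36 (1.30 to 1.42) and a difference of 0.44, and 2447 tested genes had a difference at least as high. The span of Neurod1 overlaps that of Cerkl on the same strand, whose reads numbered 265 in the control and 1013 in OIR, a ratio of 2.95 (2.58 to 3.39). Reads in the shared part are uncertain between these genes, and the part of Cerkl in the Neurod1 value was not tested. The signs of Nrl and Otx2 changed with scaling: under the authors' factors their differences were -0.12 and -0.07.

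The cone factors Thrb and Rxrg differed in opposite directions. Thrb, the thyroid hormone receptor that favours the middle-wave opsin (chromosome 14, 17660960 to 18038088), had 736 control reads and 1202 OIR reads, or 8.48 and 10.7 FPKM, a ratio of 1.26 (1.15 to 1.38). Rxrg, the retinoid X receptor of cones (chromosome 1, 167598384 to 167639623), had 124 and 102 reads, or 4.25 and 2.70 FPKM, a ratio of 0.635 (0.484 to 0.832). These intervals do not overlap, and the level of Thrb was 1.99 times that of Rxrg in the control and 3.96 times in OIR. The Thrb values count the whole gene, so its cone form was not separated from its other forms. The part of other cells of the eye in the values of either gene was not tested. Rxrg was the 1 photoreceptor factor with a difference below 0, which held under each of the 7 scalings compared, while Thrb was above 0 under each. Cone opsins, chosen after their values were seen, stood beside them as follows. The middle-wave opsin gene Opn1mw stood at 97.9 and 93.2 FPKM, and its ratio was 0.953 (0.885 to 1.03). The short-wave opsin gene Opn1sw, which both receptors restrain, stood at 209 and 165 FPKM, and its ratio was 0.789 (0.755 to 0.824). Other cone genes, also chosen after their values were seen, stood on both sides: Gnb3, a transducin subunit, had a ratio of 2.17 and Pde6c, the cone phosphodiesterase, 1.35, while Arr3, the cone arrestin, had 0.714 and Gnat2, the cone transducin alpha subunit, 0.850.

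Genes that photoreceptor factors are known to activate were compared as lists. The 15 rod markers had a median difference of 0.03, with 8 above 0 and 7 below, and their summed reads gave a ratio of 0.995 (0.991 to 0.999). The 11 cone markers had a median of 0.01, from -0.48 to 1.12, with 6 above 0 and 5 below. Their ratio of summed reads was 1.23 (1.21 to 1.25), which lay above 1 because of 1 gene. Gnb3 alone held 4613 of the 17418 control reads and 12974 of the 27766 OIR reads of this list. Without Gnb3, the summed reads of the list made up a smaller share of the OIR library than of the control library. The part of other cells of the eye in the Gnb3 value was not tested. The summed reads of the photoreceptor factors gave 1.12 (1.10 to 1.13). None of these markers was at 0 in either library.

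Bipolar cell factors had a median difference of -0.09 over 4 genes, and -0.22 with the authors' factors. Isl1, a LIM homeodomain factor of ON bipolar, cholinergic amacrine and ganglion cells (chromosome 13, 116298281 to 116309689), led the class in level in both libraries, with 1292 control reads and 1582 OIR reads and a ratio of 0.946 (0.878 to 1.02). Vsx1, a homeodomain factor of cone bipolar subtypes, had 7.12 and 6.28 FPKM, a ratio of 0.881 (0.772 to 1.01). Bhlhe22, which acts in OFF cone bipolar and some amacrine cells, had 12.3 and 11.5 FPKM, a ratio of 0.933 (0.840 to 1.04). Bhlhe23, a repressor needed by rod bipolar cells, was the 1 member of the class above 0, with 7.64 and 8.96 FPKM and a ratio of 1.17 (1.01 to 1.36). Its interval alone in the class excluded 1, and with the authors' factors it included 1 (0.919 to 1.23), while those of Isl1 (0.797 to 0.925), Vsx1 (0.701 to 0.914) and Bhlhe22 (0.762 to 0.941) then lay below 1. Among 12 bipolar markers, mostly of the ON signalling cascade, 9 lay below 0, with a median of -0.23 and a ratio of summed reads of 0.894 (0.877 to 0.911).

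All 5 ganglion cell factors had lower levels in OIR than in the control, with a median difference of -0.28 and a ratio of summed reads of 0.861 (0.784 to 0.944). These are genes of low level in whole eye, from 1.29 to 10.4 FPKM. Pou4f1, the POU factor also called Brn3a, which is the most widely expressed of its family in adult ganglion cells (chromosome 14, 104461676 to 104467999), had 428 control reads and 540 OIR reads, or 10.4 and 10.1 FPKM, a ratio of 0.975 (0.857 to 1.11). Pou4f2, or Brn3b, which is needed for ganglion cells to differentiate and send out axons (chromosome 8, 78433010 to 78436645), had 137 and 134 reads, or 2.72 and 2.05 FPKM, a ratio of 0.756 (0.591 to 0.966). Pou4f3, or Brn3c, found in a subset of ganglion cells (chromosome 18, 42394539 to 42397249), had 88 and 62 reads, or 2.37 and 1.29 FPKM, a ratio of 0.544 (0.387 to 0.762).

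The 3 POU genes differed by unequal amounts: the interval of Pou4f3 lies wholly below that of Pou4f1, and the level of Pou4f1 was 3.82 times that of Pou4f2 in the control and 4.92 times in OIR. Isl2, a LIM homeodomain factor of ganglion cells that project to the opposite side of the brain, had 73 and 63 reads and a ratio of 0.667 (0.468 to 0.947). Eomes, a T-box factor of melanopsin and some other ganglion cells, had 141 and 167 reads and a ratio of 0.915 (0.727 to 1.15). The differences of Pou4f2, Pou4f3, Isl2 and Eomes were below 0 under all 7 scalings, and that of Pou4f1 was above 0 under TPM, at 0.06. Of the 12 ganglion cell markers 11 were below 0, with a median difference of -0.49. Their summed level was 529 FPKM in the control and 368 in OIR, a ratio of summed reads of 0.698 (0.683 to 0.714). The factor median of -0.28 is damped by the 1 added to low FPKM values, and as a log2 ratio of read shares it was -0.40. In the factors' summed reads Pou4f1 held 428 of 867 in the control and 540 of 966 in OIR. The ratios of Pou4f3 and Isl2 lay below 0.698 and those of Pou4f1, Pou4f2 and Eomes above it. No ganglion cell marker was at 0.

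Horizontal cell factors were few and mixed. Prox1, which specifies horizontal cells and stays on in horizontal, AII amacrine and some bipolar cells (chromosome 1, 190118035 to 190170714), had 44.8 FPKM in the control and 37.8 in OIR, a ratio of 0.845 (0.806 to 0.885). Lens fibres also depend on Prox1, and all 17 tested lens markers lay below 0, with a ratio of summed reads of 0.713 (0.711 to 0.714). Lim2, the remaining gene of that list, had 0 reads in both libraries. The part of the lens in the Prox1 value was not tested. The antisense gene Prox1os lies in the same span with 327 and 276 reads, a ratio of 0.652 (0.553 to 0.768), and the sources used here do not say whether counting kept strands apart. Lhx1, a LIM factor that places horizontal cells in their layer, had 97 and 101 reads and a ratio of 0.804 (0.603 to 1.07).

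Onecut1 and Onecut2, which act early in the horizontal cell lineage, stayed below an FPKM of 1 in both libraries. Onecut1 had 27 and 52 reads, or 0.664 and 0.987 FPKM, a ratio of 1.49 (0.917 to 2.46). Onecut2 had 91 and 169 reads, or 0.432 and 0.619 FPKM, a ratio of 1.43 (1.11 to 1.87). Both lay on the other side of 1 from Prox1 and Lhx1. With these 2 genes counted, the median of the class was -0.03 in place of -0.24. The 4 tested horizontal cell markers had a median of -0.34, 3 of them below 0. Nefm, among those below 0, is also on the list of ganglion cell markers.

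For the 8 tested amacrine factors the median difference was -0.09, and 7 lay below the median tested gene. Tfap2b, an AP-2 factor of GABAergic and glycinergic amacrine cells (chromosome 1, 19208914 to 19238576), had 63.4 FPKM in the control and 56.2 in OIR, a ratio of 0.886 (0.838 to 0.936). Its relative Tfap2a had 12.3 and 12.9 FPKM and a ratio of 1.05 (0.938 to 1.17), and the intervals of the pair are apart by a narrow margin. Tfap2a and Tfap2b are also genes of the surface ectoderm and neural crest, and the 17 corneal and conjunctival epithelium markers all lay above 0, with 486 and 1452 FPKM in sum; the part of surface epithelium in these values was not tested. Meis2, a homeodomain factor of GABAergic amacrine cells, was the 1 member of the class with an interval above 1, at 48.2 and 54.7 FPKM and a ratio of 1.13 (1.06 to 1.22), which included 1 with the authors' factors (0.959 to 1.10).

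The remaining amacrine factors spanned ratios from 0.796 to 1.02. Lhx9, a LIM factor of some amacrine subtypes, had 161 and 166 reads and a ratio of 0.796 (0.637 to 0.995). Ebf1 and Ebf3, helix-loop-helix factors that favour glycinergic amacrine and certain other late neurons, had ratios of 0.897 (0.772 to 1.04) and 0.876 (0.761 to 1.01). Barhl2, which acts in amacrine subtype choice and ganglion cell survival, had 6.48 and 6.60 FPKM and a ratio of 1.02 (0.857 to 1.21). Tbx2, a T-box factor of eye patterning and of some inner neurons, had 25.6 and 24.8 FPKM and a ratio of 0.970 (0.905 to 1.04). Ptf1a, which drives progenitors to the amacrine and horizontal fates and is then switched off, had 0 reads in either library, which allows up to 0.126 FPKM in the control and 0.0976 in OIR at 3 reads over its deposited length. Of 13 amacrine markers 11 lay below 0, with a median of -0.08 and a ratio of summed reads of 0.723 (0.704 to 0.742), and 3 genes held most of these reads: Calb2 (4245 and 3346 reads), Gad1 (2611 and 2141) and Slc6a9 (1434 and 1375). The summed reads of the amacrine factors gave 0.967 (0.937 to 0.999).

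**Figure D3:**
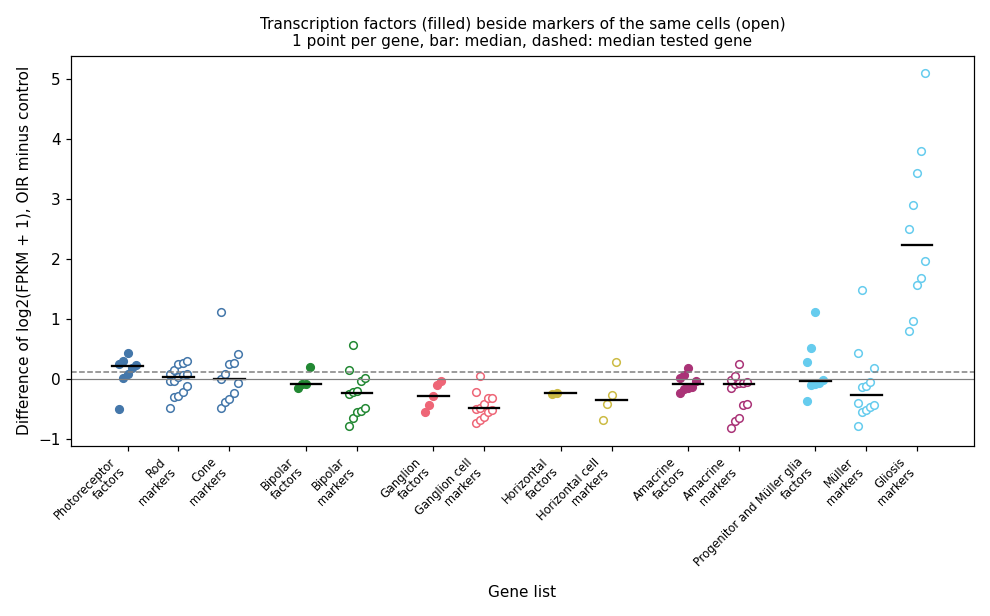
Difference of log2(FPKM + 1), OIR minus control, for tested factors (filled) and for markers of the same cells (open), 1 point per gene. Medians are bars and the median tested gene is a dashed line. Gliosis markers are drawn as a further list beside those of Müller glia, and nuclear factor I genes are not drawn. Ganglion cell factors and markers both lie mostly below 0, with medians of -0.28 and -0.49. Photoreceptor factors have a median of 0.21 beside 0.03 for rod markers. The highest gliosis marker, at 5.10, is Edn2, which had only 2 control reads beside 1081 OIR reads.

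Among factors of progenitors and Müller glia, the 3 Sox genes lay above 0 and the homeodomain genes below it. Müller glia keep several progenitor factors on for life. Sox9, an HMG box factor of Müller glia and pigment epithelium that maintains the glial state (ENSMUSG00000000567, chromosome 11, 112782224 to 112787760), had 349 reads in the control and 1083 in OIR, or 5.36 and 12.9 FPKM. This is a ratio of 2.40 (2.12 to 2.71) and a difference of 1.12, and 363 of the 15883 tested genes had a difference at least as high. With the authors' factors the ratio was 2.18 (1.93 to 2.46) and the difference 0.9988, just short of the 2-fold mark. The authors' deposited table gives Sox9 a log2 fold change of 1.12 and no mark of up or down.

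Sox8, the close relative of Sox9, had 259 and 495 reads, or 11.2 and 16.5 FPKM, a ratio of 1.48 (1.27 to 1.72). Sox2, which keeps progenitors and Müller glia in their state and is on in some amacrine cells, had 399 and 635 reads, or 12.3 and 15.1 FPKM, a ratio of 1.23 (1.08 to 1.40), which included 1 with the authors' factors (0.983 to 1.27). The interval of Sox9 does not overlap that of either, and the level of Sox9 was 0.435 times that of Sox2 in the control and 0.848 times in OIR. Sox2 lies inside Sox2ot, a long noncoding gene on the same strand, which had 469 and 467 reads and a ratio of 0.769 (0.675 to 0.876).

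Marker lists of cells that can express Sox9, and a list of gliosis genes, stood on both sides of 0. All were chosen with earlier results of these data known. Of the 12 Müller glia markers 9 lay below 0, with a median of -0.27 and a summed level of 5168 FPKM in the control and 4194 in OIR. The 6 tested astrocyte markers had a median of 0.27, with 4 above 0 and 2 below. All 10 gliosis markers, which share Gfap with the astrocyte list, lay above 0, with a median of 2.23 and 158 and 597 FPKM in sum. All 17 corneal and conjunctival epithelium markers lay above 0, with a median of 1.21, and the 9 tested pigment epithelium markers had a median of 0.14. No gene of these lists was at 0 in either library. The part of each tissue in the Sox9 value was not tested.

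The homeodomain members of the class, which mark the eye field before the retina forms, stood at or below their control levels. Pax6, needed for eye formation and kept in amacrine, ganglion and horizontal cells, lens and cornea (ENSMUSG00000027168, chromosome 2, 105668900 to 105697364), had 192 FPKM in the control and 182 in OIR, a ratio of 0.950 (0.916 to 0.985). The part of lens and cornea, whose marker lists stood lower and higher in OIR, in the Pax6 value was not tested. Six3 and Six6, eye field factors that remain in inner neurons, had ratios of 0.938 (0.881 to 0.999) and 0.748 (0.663 to 0.845). Six6 had 8.62 and 6.45 FPKM, and its difference of -0.37 was below 0 under all 7 scalings.

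Rax, an eye field gene retained in Müller glia and photoreceptors, had 28.1 and 26.0 FPKM and a ratio of 0.925 (0.838 to 1.02). Lhx2, a LIM factor of progenitors and Müller glia, had 39.7 and 39.4 FPKM and a ratio of 0.993 (0.900 to 1.10). The differences of Pax6, Six3 and Lhx2 turned positive under TPM, at 0.02, 0.01 and 0.09. Six3 shares its span with the antisense gene Six3os1, which had 1758 and 1911 reads, a ratio of 0.840 (0.787 to 0.896), and Six6 shares its span with 4930447C04Rik on the other strand, with 509 and 749 reads and a ratio of 1.14 (1.01 to 1.27).

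The nuclear factor I genes, which act in late progenitors to promote bipolar cells and Müller glia and are also found in stroma and vessels, were above 0 in all 3 cases, with a median difference of 0.27. Nfix (chromosome 8, 84699876 to 84800344) had 40.7 FPKM in the control and 52.8 in OIR, a ratio of 1.30 (1.20 to 1.40). Nfib had 13.4 and 16.3 FPKM and a ratio of 1.22 (1.12 to 1.33), and Nfia 5.57 and 6.76 FPKM and a ratio of 1.21 (1.09 to 1.35). The 3 intervals overlap one another. The genes stayed above 0 under all 7 scalings, while with the authors' factors the interval of Nfia included 1 (0.988 to 1.23). Endothelial markers, 11 of 11 above 0, summed to 124 and 198 FPKM beside them, with none at 0. Stromal fibroblast markers were mixed, with 6 above 0 and 4 below, a median of 0.14, and 262 and 298 FPKM in sum. The part of either tissue in these values was not tested.

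**Figure D4:**
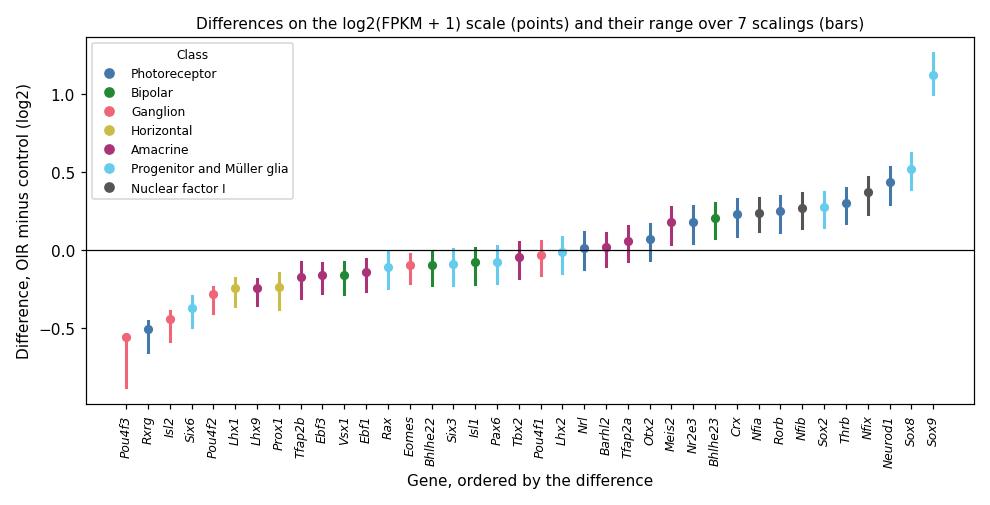
Difference of each tested member between the OIR and control libraries on the log2(FPKM + 1) scale (points, ordered from lowest to highest) with its range over 7 ways of scaling the libraries (bars), coloured by class. Of the 38 members 13 stay above 0 and 15 below 0 under all 7, and 10 cross 0. Several of the 7 share the same library totals or nearly the same shift, so they are not separate checks. Sox9 stands apart at 1.12.

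Other transcription factors of retinal development, 86 genes listed beside the members, showed a like spread. Of the 70 tested, 1 was at least 2-fold higher and 0 at least 2-fold lower, with 35 above 0, 35 below and a median difference of 0.01. The interval lay above 1 for 20 of them and below 1 for 16. The 1 gene past 2-fold was Neurog2, a proneural helix-loop-helix factor of progenitors, with 61 reads in the control and 301 in OIR, or 1.74 and 6.63 FPKM, a ratio of 3.81 (2.89 to 5.11). The genes named next were chosen after their values were seen. Among factors that act beside Crx in photoreceptors, Mef2d stood at 136 and 225 FPKM, a ratio of 1.66 (1.60 to 1.72), and Samd7, a rod silencing factor, at 43.9 and 71.9 FPKM, a ratio of 1.64 (1.54 to 1.74). Casz1, a zinc finger factor of late retinal cells, had a ratio of 1.72 (1.65 to 1.79). These 3 ratios lie above that of every photoreceptor member, but a choice made from the values gives that comparison no weight. The list as a whole was even, with the 35 above 0 and 35 below given above. Nfic, the fourth nuclear factor I gene, had a ratio of 1.30 (1.24 to 1.36), like that of Nfix. At the low end Prdm13, a factor of amacrine cells, had a ratio of 0.653 (0.562 to 0.757).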

How the data were processed

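RNA-seq of 1 control and 1 OIR eyeball sample was analysed from 1 table. The submitters' processing notes name HTSeq 0.6.1, TopHat2 2.0.12, Bowtie2 2.2.3 and build mm10; the sources used here give no order, annotation or strand setting. Per the file headers, the authors deposited read counts and FPKM per gene, a signal of counts scaled by library (used to find those scaling factors), gene length, and a log2 fold change.

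Rows were matched to members by symbol after 5 broken lines were dropped. Read-share ratios and conditional Clopper-Pearson intervals were computed with scipy 1.17.1 and checked on simulated Poisson counts with known changes. That check covers the computation only, not differences between animals or libraries, and it left out genes with few reads. All 41 spans overlapped the same gene in GENCODE M21, and 19 overlapped another gene of the table. The members, classes and marker lists were chosen with earlier results of these data known. All members are described; of the other factors, those past 2-fold, and others where stated. Spans are the table's own, on mm10; promoter windows are RefSeq's. Alternatives covered pseudocount, filter, scaling, threshold and summary.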

Additional observations from a re-analysis of the deposited data

How the results depend on the processing

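The count of members at least 2-fold higher in OIR was 1 under every alternative run except 2: it was 0 with the authors' scaling factors and 0 at a 4-fold threshold. The count at least 2-fold lower was 0 throughout. The median over the members, -0.04, ran from -0.17 with the authors' factors, -0.15 centred and -0.11 under TPM without lens, muscle, erythrocyte, mitochondrial and rRNA genes to 0.05 under TPM, and was 0.02 with an FPKM filter of 5 and as a mean. The photoreceptor median of 0.21 moved to 0.10 when centred on the median tested gene, 0.30 under TPM, 0.14 under TPM without those genes, 0.068 with the authors' factors and 0.12 as a mean. The nuclear factor I median moved to 0.14 with the authors' factors, the progenitor and Müller glia value to 0.16 as a mean, which takes in Sox9, and the ganglion median to -0.034 with an FPKM filter of 5, which leaves Pou4f1 alone. The bipolar median ran from -0.22 with the authors' factors to 0.01 under TPM, and the progenitor and Müller glia median from -0.18 to 0.05 under the same settings. A member was said to move when its value changed by more than the wider arm of its counting interval on the log2 scale. Of the 38 members, 15 moved with the authors' factors, 14 with centring, 10 under TPM and 6 under TPM without those genes. None did under the other alternatives. These shifts are nearly uniform and intervals narrow with reads, so the counts depend largely on the depth of each member. The authors' factors lowered the median of all tested genes by 0.12, to -0.01. No paired analysis was possible because each group is 1 library, so no replicate was left out in turn. Depth limits Ptf1a most, with 0 reads, then Onecut1, Isl2, Pou4f3, Lhx1 and Rxrg, with 124 reads or fewer in each library.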
